A study of Homo sapiens with 16 samples.

Results

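CXCL12, CXCL14, CXCL16, CX3CL1 and ACKR3 were followed here in Ccd18-Co, a line of human colon fibroblasts, as 4 chemokine ligands and the receptor that scavenges CXCL12. These 5 genes of the 40663 symbols in the count table were chosen by name with earlier results of these libraries known, including the rise of CXCL14 under belinostat, so their fold changes are given as a description. RNA was sequenced from 16 libraries in 4 groups of 4. All cells were seeded in 48-well plates. In 3 of the groups they passed through 3 pulses of 4 cytokines, IL-1B at 0.1 ng/ml and OSM, TNF and IL-17A each at 10 ng/ml, each pulse being 72 h of cytokines without serum and 96 h of recovery. After a rest of 1 week these groups were given for 5 days either DMSO (vehicle), 250 nM belinostat, which inhibits histone deacetylases, or 10 µM GSK-J4, which inhibits H3K27 demethylases. These concentrations are those of the sample labels; the study's text gives a lower IL-1B concentration in places and other doses of the compounds for other assays or for its assays in general. The unstimulated group was given DMSO and no cytokines. RNA was taken from all groups 2 weeks after the compounds or DMSO were removed. Ccd18-Co is a single line used up to passage 20. For RNA sequencing of these treatments the study's text gives n = 3 per group, called biological replicates in a legend. Here 4 libraries per group were used. No source used here ties the libraries of a group to separate batches of cells. The p-values thus measure the spread between these libraries, which may be technical.

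CXCL12 is the main homeostatic chemokine of stroma and acts through CXCR4, whereas ACKR3 is an atypical receptor that binds CXCL12 without G protein signalling and carries it into the cell for degradation. CXCL14 is expressed in many resting epithelia and fibroblasts, and its receptor use is less settled. CXCL16 and CX3CL1 are made as transmembrane proteins, act through CXCR6 and CX3CR1, and are released from the membrane by the proteases ADAM10 and ADAM17.

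The libraries held 14.4 to 19.5 M estimated counts. All 9 fibroblast markers were abundant, with summed normalized counts of 431599.6 to 574820.8 in a library, whereas the epithelial, endothelial and neural markers lay between 0 and 39.06 each. Of the 5 leukocyte markers, CD3E was at 0 in all libraries, PTPRC reached at most 5.12 and CD68 lay between 147.8 and 473.5. Normalized counts are estimated counts divided by the size factor of their library. The library belinostat 17 stood apart from the other belinostat libraries, with a mean squared difference of 26.5 to 31.6 times counting noise against 3.69 to 4.7 among the other libraries of that group. Unstimulated 1 and 3 differed by 31.3 times counting noise. The fold changes of CXCL12, CXCL14, CXCL16 and ACKR3 under belinostat are therefore also given without belinostat 17.

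Per kilobase of exon, CXCL14 had the highest level of the 5 genes and CX3CL1 the lowest. Over 16 libraries the mean level was 3158 normalized counts per kilobase for CXCL14, 1547 for ACKR3, 519.1 for CXCL12, 66.52 for CXCL16 and 0.58 for CX3CL1. This order held in 16 of 16 libraries. CXCL14 exceeded ACKR3 by 1.107 to 5.591 times in a library, so these neighbours came close in some libraries. ACKR3 exceeded CXCL12 by 1.75 to 7.383 times, and CXCL12 exceeded CXCL16 by 4.263 to 13.09 times. The table sums the isoforms of a gene, so that the lengths are those of all annotated exons of the gene.

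**Figure D1:**
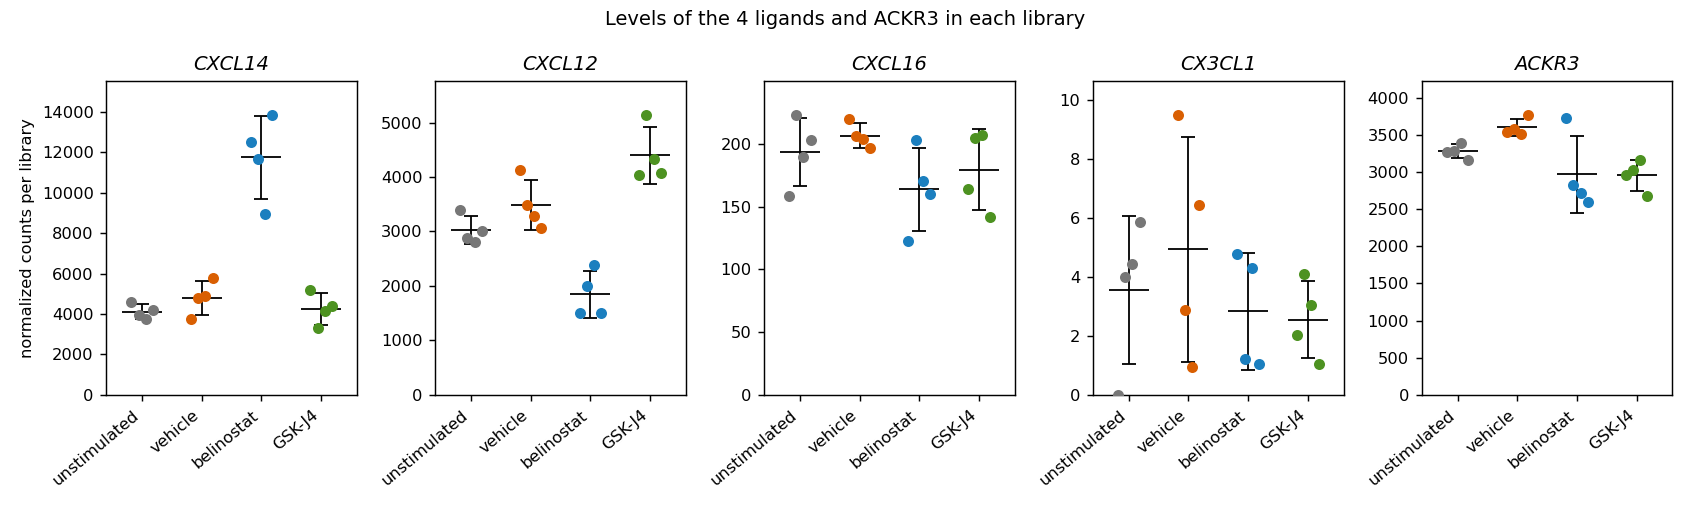
Normalized counts of the 4 ligands and ACKR3 in each library (linear vertical axes, 1 panel per gene, points for libraries, bars for the mean ± SD of the 4 libraries of a group). The 4 belinostat libraries lie between 8960.8 and 13862.2 for CXCL14, above all 12 other libraries, and between 1499.3 and 2386.4 for CXCL12, below all 12 others.

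CXCL14 was more abundant under belinostat than in any other group, and its level in vehicle, GSK-J4 and unstimulated cells overlapped. The gene (ENSG00000145824.13) lies on the minus strand of chromosome 5 at 135570679 to 135579279 in GENCODE on GRCh38. Its normalized counts were 4604.3, 3953.3, 3746.2 and 4183.6 in unstimulated cells and 3737.7, 4805.5, 4915.4 and 5782.3 in vehicle. Under belinostat they were 12509.4, 11673.5, 8960.8 and 13862.2, and under GSK-J4 they were 5196.3, 3293.9, 4171.5 and 4391.7. The lowest belinostat library was thus above the highest library of each other group, and the unstimulated, vehicle and GSK-J4 libraries were interspersed. The means were 4122 ± 368 (SD, n = 4) in unstimulated cells, 4810 ± 838 in vehicle, 11752 ± 2068 under belinostat and 4263 ± 782 under GSK-J4. Relative to vehicle the log2 fold change under belinostat was 1.29 ± 0.14 (SE), or a fold of 2.44, and it was 1.26 without belinostat 17. Relative to unstimulated cells it was 1.51 ± 0.14, or 1.48 without that library. In bulk RNA, more cells with CXCL14 and more of it per cell cannot be told apart. Under GSK-J4 the log2 fold change from vehicle was -0.17 ± 0.15, and in vehicle it was 0.22 ± 0.15 from unstimulated cells, and neither passed the threshold of an adjusted p of 0.05 over all genes.

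The 250 bases before the RefSeq start of CXCL14, at chr5:135578992-135579241 on the minus strand of GRCh38.p14, are printed because this gene and CXCL12 moved in opposite directions under belinostat. Capitals mark the AP-1 motif TGANTCA and the GC box GGGCGG, each searched on both strands from these bases to 50 bases after the start, with overlapping copies counted.
CXCL14: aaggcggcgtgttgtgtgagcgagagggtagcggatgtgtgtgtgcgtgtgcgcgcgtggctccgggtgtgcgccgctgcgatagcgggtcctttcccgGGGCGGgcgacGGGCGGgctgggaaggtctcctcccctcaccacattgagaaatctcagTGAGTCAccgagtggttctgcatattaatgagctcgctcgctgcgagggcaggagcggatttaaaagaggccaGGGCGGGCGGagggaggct
This window held 1 AP-1 motif, starting 92 bases before the start, and 4 GC boxes at 151, 140, 19 and 15 bases before it. An AP-1 motif occurs in 7.71% and a GC box in 45% of the 35116 RefSeq promoters of the same length. The motifs TTCNNNGAA of STAT factors, ACGTG of hypoxia factors and the kappaB motif were not among its letters; they occur in 7.66%, 21.4% and 5.91% of promoters.

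CXCL12 showed the opposite picture, with its lowest levels under belinostat and its highest under GSK-J4. The gene (ENSG00000107562.18) lies on the minus strand of chromosome 10 at 44370165 to 44386493, with 7 annotated transcripts that the table does not separate. Its normalized counts were 3399.9, 2885.1, 2808.8 and 3004.2 in unstimulated cells and 4132.7, 3482.2, 3277.8 and 3066.8 in vehicle. Under belinostat they were 1500.8, 1991.6, 2386.4 and 1499.3, and under GSK-J4 they were 4032.7, 5144.1, 4331 and 4074.1. All belinostat libraries were below all others, all GSK-J4 libraries were above all unstimulated libraries, and the highest vehicle library was above 2 of the GSK-J4 libraries. The means were 3024 ± 263 (SD, n = 4) in unstimulated cells, 3490 ± 461 in vehicle, 1845 ± 429 under belinostat and 4395 ± 516 under GSK-J4. The log2 fold change under belinostat was -0.92 ± 0.13 (SE) from vehicle, a level of 0.528 times that of vehicle, and -0.71 ± 0.13 from unstimulated cells. Without belinostat 17 these were -0.83 and -0.63. Under GSK-J4 it was 0.33 ± 0.13 from vehicle, which did not pass the threshold, and 0.54 ± 0.13 from unstimulated cells, which did. In order of mean level, unstimulated cells and vehicle were neighbours whose libraries overlapped, as were vehicle and GSK-J4, whereas belinostat and unstimulated cells did not overlap.

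The 250 bases before the RefSeq start of CXCL12, at chr10:44385098-44385347 on the minus strand of GRCh38.p14, follow with the same motifs in capitals.
CXCL12: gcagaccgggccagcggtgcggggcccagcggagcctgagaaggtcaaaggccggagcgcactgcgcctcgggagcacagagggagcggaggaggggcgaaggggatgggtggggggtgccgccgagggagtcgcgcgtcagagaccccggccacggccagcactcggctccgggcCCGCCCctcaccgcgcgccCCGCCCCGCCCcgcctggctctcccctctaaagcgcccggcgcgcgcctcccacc
It held 3 GC boxes, all on the reverse strand, starting 74, 55 and 50 bases before the start, and none of the other 4 motifs. Over the window of 300 bases CXCL12 had 39 CpG dinucleotides, more than 91.3% of promoters, and CXCL14 had 31, more than 79.3%, where the median promoter had 14. Both windows lie inside the GENCODE coordinates of their genes, so the RefSeq starts used are not the outermost annotated starts. RefSeq promoter entries were matched for these 2 of the 5 genes, and CXCL16, CX3CL1 and ACKR3 had none.

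The ratio of CXCL14 to CXCL12 joins both shifts. In normalized counts it was 1.354, 1.37, 1.334 and 1.393 in unstimulated libraries and 0.9044, 1.38, 1.5 and 1.885 in vehicle. It was 8.335, 5.861, 3.755 and 9.246 under belinostat and 1.289, 0.6403, 0.9632 and 1.078 under GSK-J4. The lowest belinostat library was thus above the highest of all other groups, and every GSK-J4 library was below every unstimulated library. The means were 1.36 ± 0.0249 (SD, n = 4), 1.42 ± 0.404, 6.8 ± 2.48 and 0.993 ± 0.271 in that order, with the narrowest spread in unstimulated cells.

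Within each of the 3 cytokine-pulsed groups, the order of the 4 libraries by CXCL12 was the reverse of their order by CXCL14. In vehicle, library 13 had the most CXCL12 and the least CXCL14, and library 16 the least CXCL12 and the most CXCL14. Under belinostat, library 19 had the most CXCL12 and the least CXCL14, and library 20 the reverse. Under GSK-J4, library 22 had the most CXCL12 and the least CXCL14, and library 21 the reverse. In unstimulated cells both genes ranked the libraries in the same order, from 1 and 4 down to 2 and 3. Over the 16 libraries, deviations from the group means on the log2 scale had a Pearson's r of -0.758 and a Spearman's rho of -0.703 between CXCL12 and CXCL14. Among genes with a mean of at least 50 normalized counts, 0.29% had a lower r with CXCL12. The 2 values of a point come from the same library and share its depth and size factor, and the correlation is a description without a test. The other pairs of CXCL12, CXCL14, CXCL16 and ACKR3 had an r between -0.469 and 0.436.

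**Figure D2:**
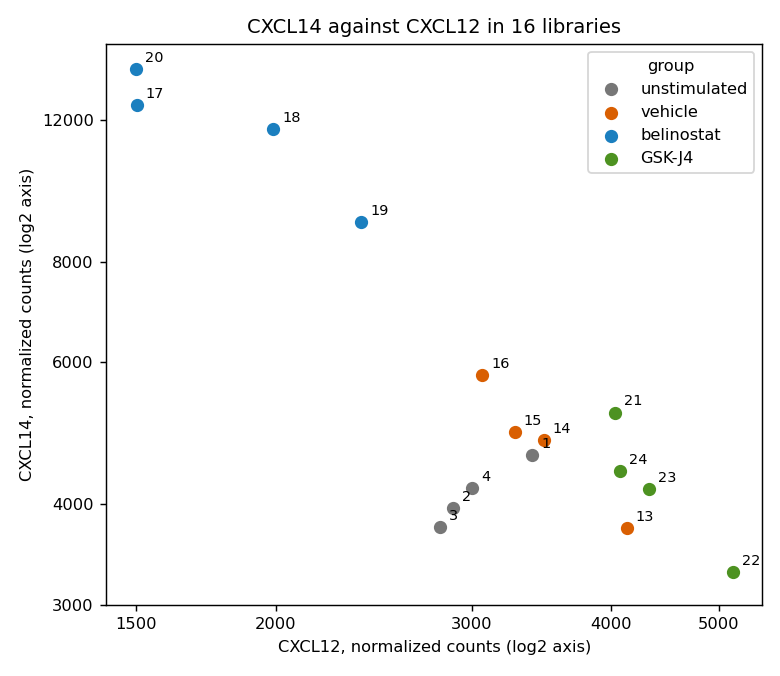
CXCL14 against CXCL12 in normalized counts, both axes on a log2 scale, with 1 point per library and a colour per group. The belinostat libraries lie apart at the upper left, with ratios of 3.755 to 9.246, and the points of vehicle, belinostat and GSK-J4 each run from upper left to lower right.

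ACKR3 had the narrowest span of group means of the 5 genes and was highest in vehicle. The gene (ENSG00000144476.6) lies on the plus strand of chromosome 2 at 236567787 to 236582354. Its normalized counts were 3271.6, 3286.5, 3394.7 and 3164.3 in unstimulated cells and 3539.8, 3584.7, 3513.5 and 3772.2 in vehicle. Under belinostat they were 3733.8, 2821.9, 2724.1 and 2598.8, and under GSK-J4 they were 2953.6, 3032.8, 3161.6 and 2671.7. Every vehicle library was above every unstimulated and every GSK-J4 library. Belinostat 17 lay within the range of vehicle, and the other 3 belinostat libraries lay below all vehicle and unstimulated libraries. The log2 fold change from vehicle was -0.28 ± 0.09 (SE) under belinostat, which passed the threshold, and -0.29 ± 0.09 under GSK-J4, which did not. Fitting only the 2 groups compared reversed this. Belinostat was then at -0.28 ± 0.11 (DESeq2 adjusted p = 0.122) and GSK-J4 at -0.29 ± 0.06 (DESeq2 adjusted p = 2.5e-05). The fall is thus not firmer under belinostat than under GSK-J4. In the fit of all groups without belinostat 17, the change from vehicle under belinostat was -0.41 and still passed. Its change from unstimulated cells, -0.14 ± 0.09 with all libraries, was then -0.27 and passed. The call against vehicle was lost without any other belinostat library or any vehicle library, at values of -0.29 to -0.22, and by edgeR at -0.27. Under belinostat and GSK-J4 the levels differed by 0.01 ± 0.09, a value that turned negative without belinostat 17 (-0.12) or without GSK-J4 24 (-0.04).

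CXCL16 had group means of 163.8 to 206.6 normalized counts, with overlap between all groups. The gene (ENSG00000161921.17) lies on the minus strand of chromosome 17 at 4733533 to 4739928. Its normalized counts were 158.3, 223.2, 189.1 and 203.1 in unstimulated cells, 219.9, 206, 204 and 196.4 in vehicle, 122.2, 202.7, 170.5 and 159.9 under belinostat, and 163.7, 204.8, 207.3 and 141.5 under GSK-J4. The lowest library was belinostat 17. The log2 fold change from vehicle was -0.34 ± 0.16 (SE) under belinostat, or -0.22 without belinostat 17, and -0.20 ± 0.15 under GSK-J4, and neither passed the threshold.

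CX3CL1 was at the edge of detection. The gene (ENSG00000006210.7) lies on the plus strand of chromosome 16 at 57372477 to 57385044. Its rounded counts were 0, 4, 5 and 6 in unstimulated cells, 10, 3, 1 and 7 in vehicle, 5, 1, 4 and 1 under belinostat, and 2, 4, 3 and 1 under GSK-J4. Several libraries were at or below 3 counts, the most that a count of 0 allows, which corresponds to 0.154 to 0.208 CPM (counts scaled to the library total) and covers counting error only. The log2 fold changes had an SE of 0.83 to 0.92, and a difference between groups was not detectable at this depth.

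Fold changes of the 5 genes were set against all genes of the same fit. In vehicle against unstimulated cells 0 of 5 genes were called by DESeq2, 0 at an unadjusted p under 0.05 and 0 by edgeR, where 1.74% of all 16240 genes tested were called. Under belinostat against vehicle 3 of the 4 genes tested were called, CXCL14 higher and CXCL12 and ACKR3 lower, where 6.26% of all genes tested were called. The comparison had served in choosing the genes, so nothing is read from that count. GSK-J4 against vehicle called 0 of 4 by DESeq2, 2 (CXCL12 and ACKR3) at an unadjusted p under 0.05 and 0 by edgeR, where 1.92% of all genes were called. Belinostat against GSK-J4 called CXCL14, at 1.46 ± 0.14 (SE), and CXCL12, at -1.25 ± 0.13, or 1.43 and -1.17 without belinostat 17, where 12.2% of all genes were called. The same genes were called in belinostat against unstimulated cells, where 10.3% of all genes were called. In GSK-J4 against unstimulated cells 1 of 5, CXCL12, was called, where 5.55% of all genes were called. The median log2 fold change of the members tested was 0.21, -0.31, -0.19, -0.06, -0.19 and -0.11 in these comparisons, and that of all genes tested was between -0.0078 and 0.0034. The contrasts with belinostat all use the same belinostat libraries, in which the rise of CXCL14 was known when the genes were chosen. Nothing is therefore read from their counts either. The belinostat and GSK-J4 contrasts also share their vehicle or unstimulated libraries, so that the comparisons are not independent of each other.

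**Figure D3:**
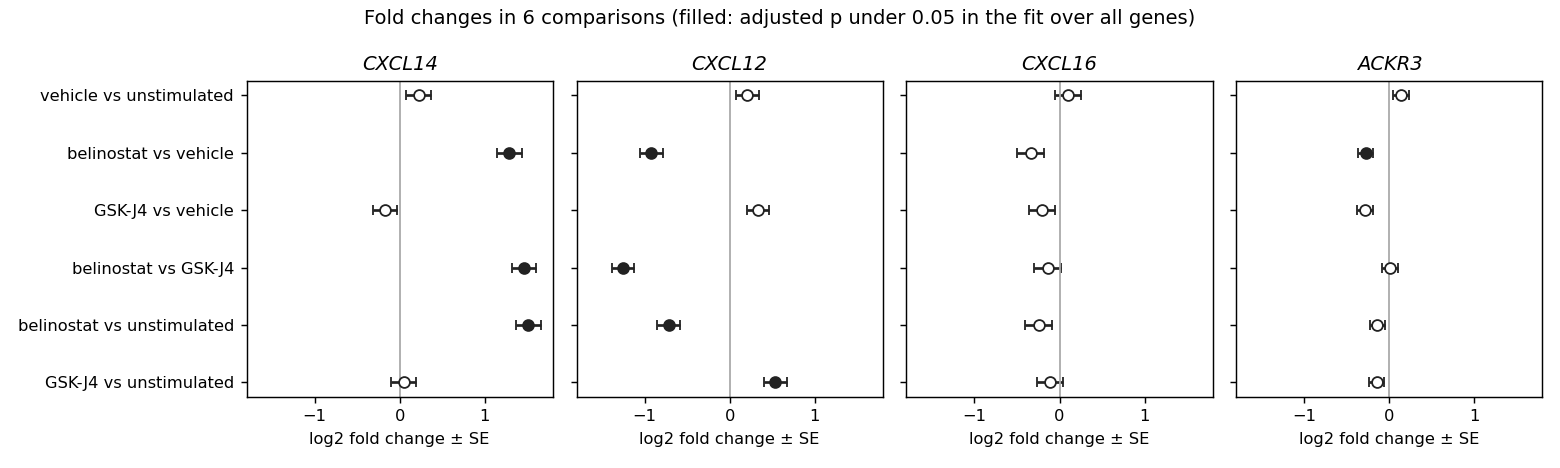
Log2 fold changes ± SE of CXCL14, CXCL12, CXCL16 and ACKR3 in 6 comparisons (horizontal axis, first group minus second, 1 panel per gene). CX3CL1 is not drawn. Filled points passed an adjusted p of 0.05 over all genes; CXCL14 lies at 1.29, 1.46 and 1.51 and CXCL12 at -0.92, -1.25 and -0.71 in the comparisons of belinostat with vehicle, GSK-J4 and unstimulated cells.

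The groups did not overlap for ACKR3 in vehicle against unstimulated cells, where 6.93% of all genes tested did not overlap. They did not overlap for CXCL12 and CXCL14 in belinostat against vehicle, against GSK-J4 and against unstimulated cells, where the shares over all genes were 11.4%, 17% and 12.3%. They did not overlap for ACKR3 in GSK-J4 against vehicle, with 10% of all genes, and for CXCL12 and ACKR3 in GSK-J4 against unstimulated cells, with 11.9%. The last of these was narrow for ACKR3, at 3164.3 in the lowest unstimulated library and 3161.6 in the highest GSK-J4 library. The span between the highest and lowest group mean was 1.497 on the log2 scale for CXCL14 and 1.27 for CXCL12, and 73 and 103 of 11741 genes with a mean of at least 50 normalized counts had a span at least as wide. It was 0.35 for CXCL16, 0.29 for ACKR3 and 0.55 for CX3CL1, which had few counts. The belinostat group set an end of the span for CXCL14 and CXCL12. The rise of CXCL14 in that group was known when the genes were chosen, so these counts of genes are a description.

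Among chemokine ligands, the make-up of the transcripts under belinostat was mainly CXCL14. The table held 43 ligand symbols, of which 23 had a mean of at least 1 normalized count and 15 of at least 10. The 5 with the highest level per kilobase were CXCL14 at 3158, the neutrophil attractants CXCL1 at 2161 and CXCL6 at 586.6, CXCL12 at 519.1 and the monocyte attractant CCL2 at 518. These are means over all 16 libraries, and CXCL14 did not lead in every group: mean CXCL1 was above mean CXCL14 in vehicle (2770 against 2436) and under GSK-J4 (2322 against 2159). CXCL1 exceeded CXCL14 in all 4 vehicle libraries and in GSK-J4 22 and 23. CXCL14 made up 38.2% ± 0.92 (SD, n = 4) of the summed ligand counts per kilobase in unstimulated cells, 30.8% ± 2.28 in vehicle, 64.5% ± 4.19 under belinostat and 30.4% ± 6.06 under GSK-J4. CXCL12 made up 9.01% ± 0.166, 7.4% ± 1.92, 3.38% ± 1.21 and 10.1% ± 1.19 in that order. CXCL16 made up 0.65% to 1.28% on average. All 4 ligands together were 48.5% ± 0.933 of the sum in unstimulated cells, 39.2% ± 2.1 in vehicle, 68.5% ± 2.96 under belinostat and 41.3% ± 5.14 under GSK-J4. These shares also move with the other ligands, since mean CCL2 was 684.9 normalized counts per kilobase in vehicle and 140 under belinostat, and mean CXCL6 was 263.3 in unstimulated cells and 790.4 in vehicle. The shares depend on length: without it, CXCL12 made up 25.8%, 21.9%, 10.3% and 28.3% of the ligand counts in the same order of groups.

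**Figure D4:**
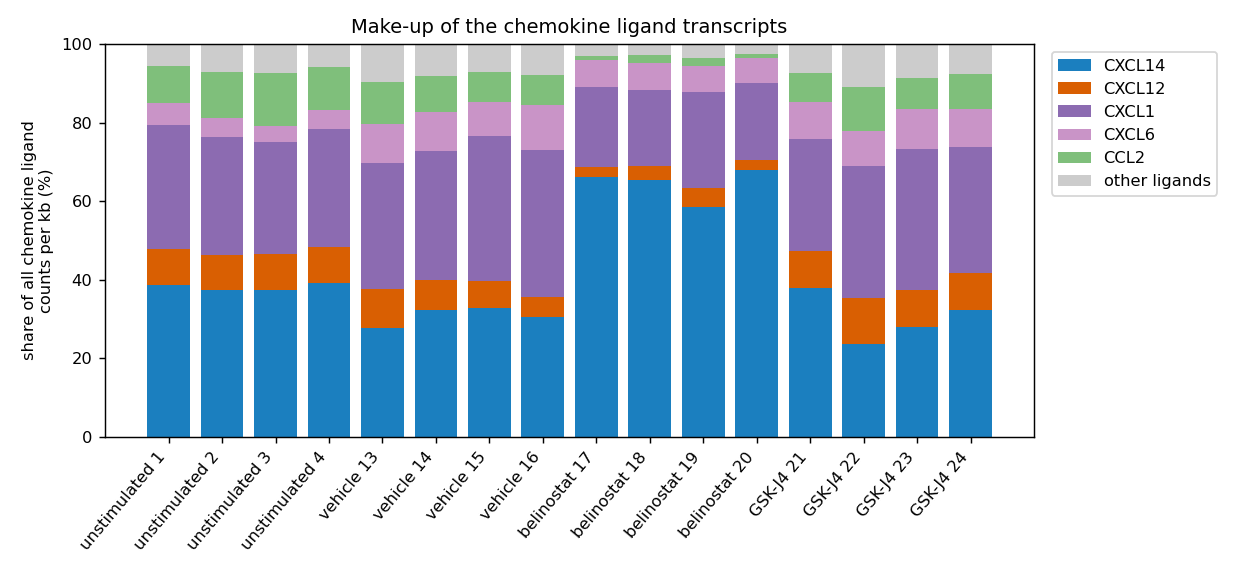
Share of each of the 5 most abundant ligands and of all other ligands in the summed chemokine ligand counts per kilobase of exon (%, stacked bars from 0 to 100, 1 bar per library). CXCL14 takes 58.46% to 68.05% in the belinostat libraries and 23.57% to 39.25% in the others.

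Transcripts of the matching signalling receptors were near 0 in these fibroblasts. CXCR4 lay between 0 and 7.268 normalized counts in a library, CXCR6 between 0 and 3.144, and CX3CR1 was at 0 in all 16. CD74, a receptor for MIF, reached 3.115, and CXCL11, another ligand of ACKR3, reached 7.377. Of the further ligands of ACKR3, the peptide adrenomedullin (ADM) had a mean of 3807 and MIF of 1476 normalized counts. ADM and MIF were the only genes of this list of 7 with enough counts to be tested; ADM was lower under belinostat than under GSK-J4 (log2 fold change -0.27 ± 0.08, DESeq2 adjusted p = 0.00493; -0.20 without belinostat 17, still called). Among the other atypical receptors, ACKR1 and GPR182 were at 0 in all libraries, CCRL2 reached 2.077, ACKR2 lay between 0.9221 and 16.6, and ACKR4, a scavenger of CCL19, CCL21 and CCL25, lay between 4.193 and 24.82. DESeq2 tested at most 2 of these 5 receptors in a comparison, and 0 in GSK-J4 against vehicle, so that most could not be called. None of these was called by DESeq2 or edgeR in any of the 6 comparisons, where DESeq2 called 1.74% to 12.2% of all genes tested. For so few genes nothing is read from that. Of these receptors 1, ACKR4, was at an unadjusted p under 0.05, in belinostat against GSK-J4 and against unstimulated cells.

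Of the other homeostatic chemokines, CCL19, CCL25 and CXCL17 were at 0 in all libraries, CCL21 reached 0.9582, CXCL13 reached 2.002 and CCL27 reached 6.683. CCL28, a mucosal ligand of CCR10, lay between 5.241 and 18.63. DESeq2 tested at most 1 of these 7 genes in a comparison and called 0, with 0 at an unadjusted p under 0.05 and 0 by edgeR. The 9 genes that carry or end chemokine receptor signals, GNAI1, GNAI2 and GNAI3 (inhibitory G proteins), GRK2, GRK3, GRK5 and GRK6 (receptor kinases) and ARRB1 and ARRB2 (arrestins), were all tested. DESeq2 and edgeR called 0 of them in each of the 6 comparisons, with at most 1, ARRB1, at an unadjusted p under 0.05. DESeq2 called 1.74% to 12.2% of all genes tested in these comparisons. For so few genes 0 calls lie near that share, so nothing is read from them here or for the 7 chemokines. Mean normalized counts in a group reached 6075 for GNAI2 and were lowest for GRK3, at 39.42 to 45.98.

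Of the genes that release or trim these ligands, those called under belinostat moved by less than CXCL14 and CXCL12 did. The list held 13 genes: the proteases ADAM10 and ADAM17, the ADAM17 partners RHBDF1, RHBDF2 and FRMD8, the inhibitor TIMP3, 6 tetraspanins that escort ADAM10 (TSPAN5, TSPAN10, TSPAN14, TSPAN15, TSPAN17 and TSPAN33), and DPP4, a peptidase that inactivates CXCL12 by cutting its amino end. The list was written with earlier results of these libraries known, so its counts and median are a description in every comparison. Under belinostat against vehicle 6 of 13 were called by DESeq2 and 3 by edgeR, where DESeq2 called 6.26% of all genes tested. The groups did not overlap for TSPAN5, ADAM17, RHBDF1, TIMP3, TSPAN14 and the uncalled TSPAN33, where 11.4% of all genes tested did not overlap. TSPAN5 fell from 802.9 ± 41.8 (SD, n = 4) to 641.3 ± 39.8 normalized counts (log2 fold change -0.33 ± 0.06, DESeq2 adjusted p = 6.24e-06). DPP4 fell from 5642 ± 156 to 4755 ± 526 (-0.25 ± 0.06, adjusted p = 0.00359), with overlapping libraries. Both calls held under every alternative run, and without belinostat 17 the values were -0.30 and -0.33. ADAM17 rose from 940.2 ± 40.3 to 1109 ± 86.5 (0.24 ± 0.07, adjusted p = 0.011), a call lost without vehicle 13 (0.23), vehicle 16 (0.22) or belinostat 17 (0.18). TSPAN14 (-0.25 ± 0.08, adjusted p = 0.0311), TIMP3 (-0.19 ± 0.06, adjusted p = 0.0371) and RHBDF1 (-0.20 ± 0.07, adjusted p = 0.0411) were lower by DESeq2, and edgeR called none of the 3. When 1 library was left out, the RHBDF1 call was past the threshold only without belinostat 20, the TIMP3 call without vehicle 13 or belinostat 18 or 19, and the TSPAN14 call without vehicle 13 or belinostat 17. The values in the fits that lost the call were -0.22 to -0.15, -0.19 to -0.13 and -0.26 to -0.22. Without belinostat 17, RHBDF1 was at -0.15, TIMP3 at -0.13 and TSPAN14 at -0.29. The TIMP3 call was also lost when only belinostat and vehicle were fitted (-0.19). ADAM10 had group means of 3923 to 4256 and was not called. The median log2 fold change of the 13 genes was -0.19, where that of all genes tested was 0.0029.

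**Figure D5:**
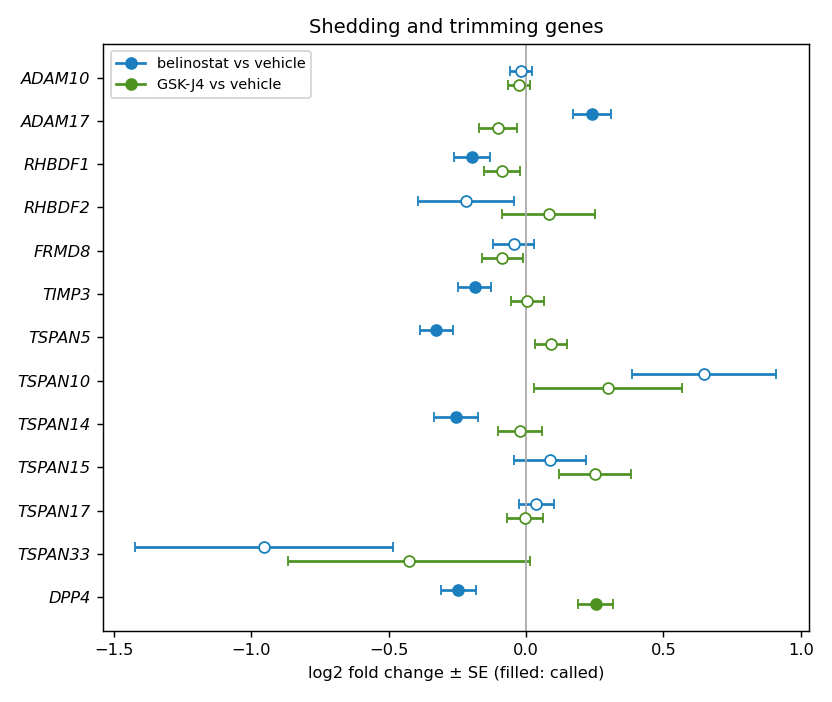
Log2 fold changes ± SE (horizontal axis) of the 13 genes that shed or trim these ligands, in belinostat against vehicle and GSK-J4 against vehicle, with filled points for those called by DESeq2. DPP4 lies at -0.25 under belinostat and 0.25 under GSK-J4, and TSPAN33 and TSPAN10 have the widest errors.

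DPP4 was the gene of this list called in GSK-J4 against vehicle (1.92% of all genes tested), where it rose from 5642 to 6727 ± 195 normalized counts (log2 fold change 0.25 ± 0.06, DESeq2 adjusted p = 0.00739). The call was lost by edgeR (0.25) and without vehicle 15 or GSK-J4 22 (0.24 each). In belinostat against GSK-J4 the list had 5 genes called by DESeq2 and 3 by edgeR, where DESeq2 called 12.2% of all genes tested. DPP4 differed by -0.50 ± 0.06 (adjusted p = 5.24e-13), TSPAN5 by -0.42 ± 0.06 (adjusted p = 3.95e-10) and ADAM17 by 0.34 ± 0.07 (adjusted p = 2.27e-05), or -0.58, -0.39 and 0.29 without belinostat 17. TIMP3 (-0.19 ± 0.06, adjusted p = 0.0182) and TSPAN14 (-0.23 ± 0.08, adjusted p = 0.0389) were also lower, and both calls were lost by edgeR. The TIMP3 call was lost without belinostat 20 or GSK-J4 22, 23 or 24 (-0.19 to -0.18). The TSPAN14 call was lost without belinostat 18, 19 or 20 or GSK-J4 21, 23 or 24 (-0.24 to -0.19), with library totals as size factors (-0.22) and when only belinostat and GSK-J4 were fitted (-0.23). Without belinostat 17 both were still called, TIMP3 at -0.13 and TSPAN14 at -0.27. In vehicle against unstimulated cells, where 1.74% of all genes tested were called, RHBDF2 rose from 65.6 ± 13.6 to 109.1 ± 17.6 (0.73 ± 0.18, adjusted p = 0.00488), a call lost without unstimulated 4 (0.60) or vehicle 13 (0.64). RHBDF2 was also higher than in unstimulated cells under GSK-J4 (0.81 ± 0.18, DESeq2 adjusted p = 0.000346), a call kept in all 13 alternatives. Under belinostat it was at 0.51 ± 0.18 (DESeq2 adjusted p = 0.0495), a call lost in 9 of 13. DESeq2 called 5.55% and 10.3% of all genes tested there, and the 3 comparisons share the unstimulated libraries.

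The genes whose pattern over 16 libraries was most like that of CXCL12, by the root mean square difference in log2 normalized counts centred on the unstimulated mean, were TMEM150C at 0.177, PLAT at 0.183 and COL6A2 at 0.193, among 11740 genes with a mean of at least 50. PLAT encodes tissue plasminogen activator and COL6A2 a chain of collagen VI. PLAT had group means of 9064 in unstimulated cells, 11621 in vehicle, 5866 under belinostat and 11659 under GSK-J4, and COL6A2 had 49157, 49444, 30916 and 68225. TMEM150C had 248.5, 260.3, 162.2 and 378.2 in the same order of groups. Thus TMEM150C and COL6A2 had their lowest mean under belinostat and their highest under GSK-J4, as CXCL12 did. The genes were picked for likeness to CXCL12 in these same libraries, so the shared order is a description only. PLAT was also lowest under belinostat, but its means in vehicle and under GSK-J4 were nearly the same. The genes nearest to CXCL14 were SESN3 at 0.342, PTGES, a prostaglandin E synthase, at 0.361 and the proteoglycan gene VCAN at 0.38. PTGES had means of 630.7, 573.7, 1225 and 588.6, and VCAN of 3494, 5423, 7390 and 3961, in the same order of groups. The differences were larger for CXCL14 than for CXCL12, so that its nearest genes followed it less closely.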

How the data were processed

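RNA was sequenced from 16 libraries of Ccd18-Co, mapped to 4 groups by their titles. The columns of unstimulated libraries name no vehicle where the titles give DMSO, and they were matched by number. Per the methods and the submitters' processing notes, the authors quantified reads with kallisto 0.48.0 after FastQC 0.11.9 and MultiQC 1.14, with hg38 as build, and deposited estimated counts per gene symbol. The transcriptome release and the summing to symbols are not given in the sources used here. RNA came from either of 2 kits, and which library had which is not given.

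Estimated counts (28% with decimals, not scaled) were rounded, and 26907 of 40663 symbols had at least 1. Depth was 14.4 to 19.5 M per library. No pair of libraries agreed within counting noise. DESeq2 1.42.0 under R 4.3.3, the tool of the study's methods, gave the main test, in a single two-sided Wald fit of all 16 libraries by group, without a prior filter, with median-of-ratios size factors and Benjamini-Hochberg adjusted p under 0.05 as the threshold. A gene whose adjusted p was NA counted as not tested. edgeR 4.0.16 was the alternative. Both were run on simulated data for belinostat against vehicle only, with planted log2 changes of 1 or 2. Smaller changes, such as those of CXCL12 (-0.92 in that comparison), ACKR3 and the shedding genes, were not simulated. Further alternatives were other size factors, a low-count filter, a fit of the 2 groups alone, and leaving out each library. Lengths and coordinates came from GENCODE 44 on GRCh38 by symbol, and promoters from RefSeq on GRCh38.p14.

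The members, pathway lists and markers were chosen with earlier results of these data known. The text names every member, pathway genes called in the comparisons of vehicle with unstimulated cells and among the 3 cytokine-pulsed groups, the receptor lists, the 3 genes most like each member whose group means span at least 1 on the log2 scale, and the 5 most abundant ligands. CCL28, GNAI2, GRK3, ARRB1, ACKR4, ADAM10, TSPAN33 and TSPAN10 are named beyond that rule, after their values were seen. The values of RHBDF2 under belinostat and GSK-J4 against unstimulated cells were also added in that way.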

Additional observations from a re-analysis of the deposited data

How the results depend on the processing

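The calls of CXCL14 and CXCL12 in belinostat against vehicle, GSK-J4 and unstimulated cells, and of CXCL12 in GSK-J4 against unstimulated cells, kept their direction and stayed past the threshold in all 13 alternatives run for each comparison. CXCL14 ranged from 1.18 to 1.40 and CXCL12 from -1.07 to -0.83 on the log2 scale in belinostat against vehicle, and CXCL12 from 0.46 to 0.60 in GSK-J4 against unstimulated cells. The calls of ACKR3 and CXCL12 against vehicle depended in part on the setting. The call of ACKR3 was lost under belinostat by edgeR and when those 2 groups alone were fitted. Under GSK-J4 it was gained with library totals as size factors (-0.31) and when GSK-J4 and vehicle alone were fitted (-0.29). That last fit also called CXCL12 in GSK-J4 against vehicle (0.33), while the call of CXCL12 under belinostat held. The members called in that comparison were thus 1 and 2 in place of 0. Over all genes, edgeR called 166 in place of 282 genes in vehicle against unstimulated cells and 91 in place of 253 in GSK-J4 against vehicle. The fit of 2 groups alone called 542 in the latter and 876 in place of 1461 in belinostat against unstimulated cells. Leaving out 1 library gave 180 (without unstimulated 2) to 295 genes and 0 to 1 pathway genes in vehicle against unstimulated cells. It gave 132 to 193 genes and 0 to 1 pathway genes in GSK-J4 against vehicle, with 139 and 132 without vehicle 14 and 15 and 162, 147 and 137 without GSK-J4 21, 22 and 23. In belinostat against vehicle it gave 2 to 5 pathway genes in place of 6, and edgeR called 3; in GSK-J4 against vehicle edgeR called 0 pathway genes in place of 1, with 1 at an unadjusted p under 0.05 by DESeq2. Without 1 library, uncalled values changed sign for CX3CL1 in vehicle against unstimulated cells (-0.06 to 0.81), in belinostat against GSK-J4 (-0.22 to 0.49) and against unstimulated cells (-0.72 to 0.03), for ACKR3 in belinostat against GSK-J4 (-0.12 to 0.07) and for CXCL14 in GSK-J4 against unstimulated cells (-0.06 to 0.15). The cause of these changes was not tested. As shares of counts without length, the 4 ligands made up 62.6%, 52.9%, 74.9% and 57% of ligand counts in unstimulated cells, vehicle, belinostat and GSK-J4, and per kilobase of the longest transcript, a scale chosen after seeing the data, 65.6% under belinostat. The planned coding length from RefSeq proteins was not run. The order of the 5 levels was the same per kilobase of exon and of the longest transcript. No paired analysis was possible because the groups share no replicate numbers. Depth limits CX3CL1 and the receptors, which had few or no counts.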
